A study of Mus musculus with 6 samples.

Results

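Type 1 conventional dendritic cells (cDC1) are the dendritic cells that take up dead tumour cells and present their antigens to CD8+ T cells. In mice their development depends on the transcription factors Batf3 and Irf8, and the mature cells are recognised by the chemokine receptor Xcr1, the dead-cell receptor Clec9a, the adhesion molecule Cadm1 and, in tissues, the integrin chain Itgae (CD103). The 10 genes described here are those 4 surface molecules, the 2 transcription factors, and Wdfy4, Snx22, Gcsam and Naaa, which are also known as cDC1 genes. They were chosen by symbol, and all 10 had a row among the 26519 genes of the table. The choice did not use a measured value, but the values of several of them were known from earlier work on the same libraries.

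Dendritic cells were taken from tumours of MC38, a mouse colon carcinoma line, on day 10 after inoculation. The 3 MAVS KO samples came from hosts lacking MAVS, the adaptor that relays the signal of RIG-I-like RNA sensors, and the 3 WT samples from wild-type hosts. The same tumour line was used in both, so the genotype named by the labels is that of the host. Not given in the sources used here are the deleted exons, whether the knockout is whole-body, the strain, age and sex of the hosts, how the cells were sorted, and whether a replicate is 1 animal or a pool. The p-values therefore measure the spread between these samples, which may be technical. RNA was sequenced in bulk and deposited as read counts per gene.

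Library totals were 14466640 to 18862534 counts in MAVS KO and 17357031 to 20851733 in WT. Mavs itself averaged 10.4 ± 2.09 CPM in MAVS KO and 37.7 ± 3.32 CPM in WT (SD, n = 3 each). Its log2 fold change, -1.86, had an SE of 0.18, and each MAVS KO library lay below each WT library. CPM is the count scaled to a common library total, after TMM scaling, which corrects totals for differences in composition. A gene is called lower or higher where the adjusted p of edgeR's quasi-likelihood test, by Benjamini-Hochberg over all 12580 genes tested, is below 0.05. Of those genes 354 were called (2.81%), 132 lower (1.05%) and 222 higher (1.76%) in MAVS KO.

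The defining cDC1 transcripts were present in all 6 libraries, but at low levels beside macrophage transcripts. Clec9a had between 93 and 224 counts in a library and Xcr1 between 95 and 1036. Clec9a averaged 7.15 ± 0.787 CPM in MAVS KO and 7.49 ± 2.49 CPM in WT (SD, n = 3 each). Xcr1 averaged 7.79 ± 1.75 CPM in MAVS KO and 35.1 ± 12.9 CPM in WT (SD, n = 3 each). The macrophage gene Lyz2 averaged 22105 ± 4494 CPM in MAVS KO and 21636 ± 2363 CPM in WT (SD, n = 3 each). The 14 macrophage markers summed to 28629 to 36178 CPM in MAVS KO and 26906 to 32066 CPM in WT. In such bulk samples fewer cDC1 and less RNA of a gene per cDC1 cannot be told apart.

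The start regions of 4 members are shown as a sequence context for the values below, Xcr1 and Snx22 because they had the lowest expression in MAVS KO relative to WT among the surface molecules and the remaining genes, and Clec9a and Irf8 because they did not pass the test. Each is the 250 bases before the first listed RefSeq start in GRCm38.p6, read in the direction of the gene. Capitals mark any match to TATAAA on either strand.
Xcr1 promoter, chr9:123862030-123862279 (- strand): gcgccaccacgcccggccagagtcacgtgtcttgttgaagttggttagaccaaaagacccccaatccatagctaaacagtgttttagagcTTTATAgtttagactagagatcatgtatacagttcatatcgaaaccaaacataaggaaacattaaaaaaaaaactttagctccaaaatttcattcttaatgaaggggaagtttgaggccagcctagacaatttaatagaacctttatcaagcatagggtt
Snx22 promoter, chr9:66069760-66070009 (- strand): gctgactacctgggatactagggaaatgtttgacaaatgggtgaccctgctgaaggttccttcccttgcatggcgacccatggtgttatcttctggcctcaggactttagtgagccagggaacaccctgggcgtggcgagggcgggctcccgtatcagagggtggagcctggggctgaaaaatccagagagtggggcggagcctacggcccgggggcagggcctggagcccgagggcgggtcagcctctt
Clec9a promoter, chr6:129408612-129408861 (+ strand): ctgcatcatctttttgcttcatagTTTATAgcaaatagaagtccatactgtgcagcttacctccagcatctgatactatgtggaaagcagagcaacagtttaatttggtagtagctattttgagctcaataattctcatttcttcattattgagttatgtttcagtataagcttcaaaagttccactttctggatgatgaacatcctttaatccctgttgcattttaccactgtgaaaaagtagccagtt
Irf8 promoter, chr8:120736108-120736357 (+ strand): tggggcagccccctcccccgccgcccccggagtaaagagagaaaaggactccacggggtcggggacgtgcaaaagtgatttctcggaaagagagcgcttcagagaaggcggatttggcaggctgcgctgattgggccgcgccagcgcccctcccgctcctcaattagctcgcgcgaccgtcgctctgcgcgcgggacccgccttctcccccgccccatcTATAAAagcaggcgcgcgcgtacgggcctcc
Of the 10 members 8 had such a window in the RefSeq table. None of the 8 held the AP-1 letters TGANTCA bound by BATF factors with JUN, which 6.87% of 27025 promoters of the same length held. None held an IRF element, searched as GAAA followed after any 2 bases by GAAA (3.04% of promoters), an ETS-IRF element, searched as GGAA followed after any 2 bases by GAAA (2.38%), or the PU.1 letters GAGGAAGT (2.44%). The composite AP-1 and IRF elements, searched as TGANTCA followed after any 4 bases by GAAA (0.0851%) and as GAAA directly before TGANTCA (0.104%), contain the AP-1 letters and were likewise not found. TATAAA was found in Xcr1, Clec9a and Irf8, against 12.97% of promoters, and in Irf8 alone of these on the strand of the gene, at -31 to -26 from the start. Both strands were searched, and these windows do not include distal enhancers. Irf8 and Snx22 each had a further listed start, whose window was also searched. Neither further window held any of these letters, so for Irf8 TATAAA was found only at the first listed start. The percentages over promoters used the first listed start of each gene.

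Of the 10 members 5 were lower in MAVS KO, none was higher and 5 did not pass. The background was 1.05% of tested genes lower. The 5 were Xcr1, Itgae, Wdfy4, Snx22 and Gcsam, and the same 5 were the members whose MAVS KO values all lay below all WT values, as they did for 10.6% of tested genes. Of them Xcr1, Itgae, Snx22 and Gcsam were lower by at least 2-fold; 0.58% of all tested genes were both called lower and at least 2-fold lower. The median log2 fold change of the 10 members was -0.91, beside -0.0022 over all tested genes. Before adjustment, 7 members had a p below 0.05, as did 16% of tested genes. All 10 passed the filter on low counts, and the lowest count of any member in any library was 20, for Snx22.

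**Figure D1:**
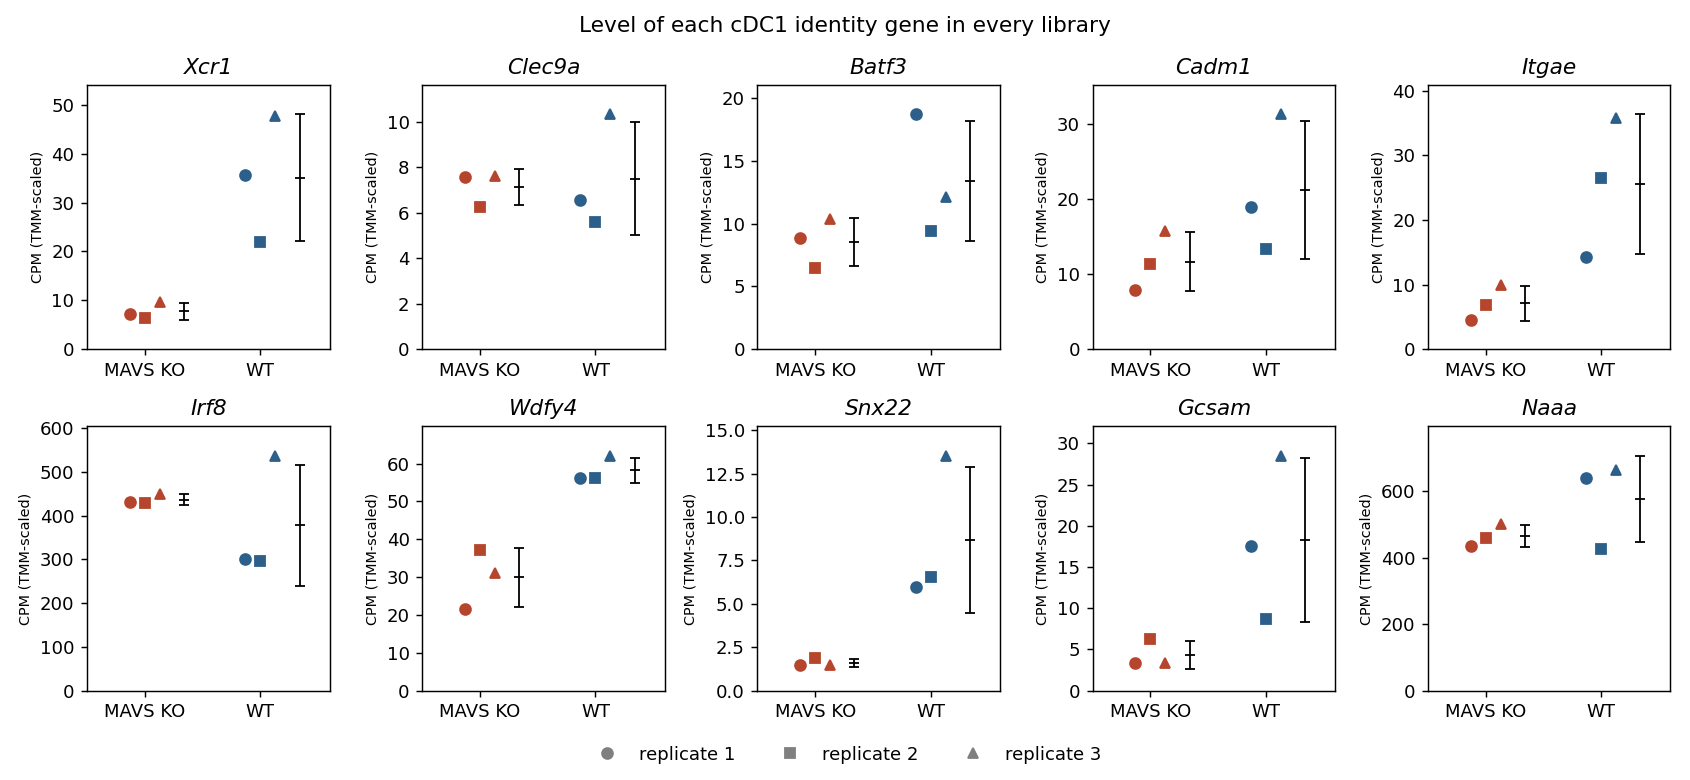
TMM-scaled CPM (vertical axis from 0) of the 10 cDC1 identity genes in the 3 MAVS KO libraries (red, left) and the 3 WT libraries (blue, right), with replicate numbers as symbols and the mean ± SD in black. The groups are apart for Xcr1, Itgae, Wdfy4, Snx22 and Gcsam, and overlap for Clec9a, Batf3, Cadm1, Irf8 and Naaa.

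Among the surface molecules, Xcr1 and Itgae were lower, and Clec9a and Cadm1 did not pass. Xcr1, the receptor for the chemokine Xcl1 made by NK and T cells, had 7.25, 6.37 and 9.74 CPM in MAVS KO, against 35.6, 21.9 and 47.7 CPM in WT. The highest MAVS KO library stood below the lowest WT library by a wide margin, and the WT libraries differed among themselves by 2.18-fold. Its log2 fold change was -2.18 (SE 0.29, 95% interval -2.81 to -1.54, edgeR adjusted p = 0.00994), which ranked 18 among the 12580 tested genes by p. Xcr1 (chromosome 9, 123852315 to 123862029 in mm10) was the sole member to pass whichever of the 6 libraries was omitted, its edgeR adjusted p then lying between 0.00145 and 0.0494.

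Itgae encodes the alpha chain that pairs with Itgb7 to bind E-cadherin, and it is also expressed by tissue-resident T cells. It had 4.49, 6.91 and 9.96 CPM in MAVS KO, against 14.3, 26.5 and 35.8 CPM in WT. The groups did not overlap, though within each of them the highest library was more than 2-fold above the lowest (2.22-fold in MAVS KO and 2.51-fold in WT). The log2 fold change was -1.85 (SE 0.36, edgeR adjusted p = 0.0284). T cell markers did not pass: 0 of 10 were called by edgeR, 4 had a log2 fold change below 0, and their median was 0.11. Their summed level was 28.4 to 38.7 CPM in MAVS KO and 36.4 to 56.0 CPM in WT, of which Cd2 alone (log2 fold change -0.88, not passed) made up 32.2 to 47.3% in MAVS KO and 46.2 to 60.8% in WT. Cd8b1 (1.16), Cd3e (0.83), Cd3d (0.54) and Cd3g (0.27) had positive log2 fold changes and did not pass. Trac (-0.73), Foxp3 (-0.62) and Cd5 (-0.30) had negative ones and did not pass either. The part of T cells in the Itgae values was not tested. Its partner Itgb7 averaged 322 ± 40.1 CPM in MAVS KO and 306 ± 67.7 CPM in WT (SD, n = 3 each) and did not pass.

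Clec9a, the receptor that recognises actin exposed by dead cells and routes their antigens to cross-presentation, showed no detectable difference. It had 7.58, 6.24 and 7.62 CPM in MAVS KO, against 6.56, 5.61 and 10.3 CPM in WT, and the MAVS KO values lay within the range of WT. The log2 fold change was -0.07 (SE 0.28, 95% interval -0.69 to 0.55, edgeR adjusted p = 0.939). The interval leaves room for a moderate change either way but does not reach the change of Xcr1. Clec9a (chromosome 6, 129408862 to 129424763 in mm10) shares 474 bases on the same strand with Clec1b, which had 54, 23 and 39 counts in MAVS KO and 20, 8 and 20 counts in WT (log2 fold change 1.66, edgeR adjusted p = 0.156). Whether reads of Clec1b entered the Clec9a count was not tested.

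Cadm1, the adhesion molecule that binds Crtam on activated T cells, had 7.98, 11.3 and 15.8 CPM in MAVS KO, against 19.0, 13.3 and 31.3 CPM in WT. The groups overlapped through WT replicate 2, and the log2 fold change of -0.87 (SE 0.33, 95% interval -1.59 to -0.14) did not pass (edgeR adjusted p = 0.22). It was -0.47 without WT replicate 3. With no filter on low counts it passed (edgeR adjusted p = 0.00455).

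Neither transcription factor passed. Batf3, the AP-1 family factor without which mice lack most cDC1, had 8.82, 6.51 and 10.3 CPM in MAVS KO, against 18.7, 9.40 and 12.1 CPM in WT. The MAVS KO library with most Batf3 exceeded the WT library with least, and the log2 fold change was -0.65 (SE 0.29, 95% interval -1.28 to -0.01, edgeR adjusted p = 0.303). Without WT replicate 1 it was -0.34. Irf8, which acts with Batf3 in cDC1 and is also expressed by monocytes, macrophages and B cells, had 430.9, 428 and 450.1 CPM in MAVS KO, against 300.4, 295.8 and 537.1 CPM in WT. The MAVS KO libraries were tightly grouped between the WT values, and the log2 fold change was 0.21 (SE 0.20, 95% interval -0.24 to 0.65, edgeR adjusted p = 0.696). Without WT replicate 3 it was 0.55 and Irf8 was then called higher (edgeR adjusted p = 0.0347).

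Of the genes of antigen handling and of less defined roles, Wdfy4, Snx22 and Gcsam were lower and Naaa did not pass. Wdfy4, a BEACH-domain protein that cDC1 need to cross-present cell-associated antigen, had 21.7, 37.2 and 31.1 CPM in MAVS KO, against 56.3, 56.2 and 62.1 CPM in WT. It was the member with the least spread in WT, 1.10-fold between libraries, and its log2 fold change was -0.96 (SE 0.18, edgeR adjusted p = 0.0282). Snx22, a sorting nexin, had 1.46, 1.88 and 1.47 CPM in MAVS KO, against 5.96, 6.57 and 13.5 CPM in WT, from 26, 28 and 20 counts against 121, 123 and 294 counts. It had the largest change of the 10, its log2 fold change being -2.44 (SE 0.39, edgeR adjusted p = 0.0164).

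Snx22 lies tail to tail with Ppib, an abundant endoplasmic reticulum isomerase gene, and shares 1448 bases with it on the opposite strand. Ppib averaged 63.8 ± 4.74 CPM in MAVS KO and 58.4 ± 9.49 CPM in WT (SD, n = 3 each) and did not pass (log2 fold change 0.13). The strand setting of the counting was not stated in those sources, so some reads of either gene could be assigned to the other.

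Gcsam, an adaptor first described in germinal centre B cells, had 3.37, 6.30 and 3.30 CPM in MAVS KO, against 17.5, 8.70 and 28.5 CPM in WT. The groups did not overlap, but the WT libraries differed by 3.28-fold, the widest range of any member. The log2 fold change was -2.08 (SE 0.42, edgeR adjusted p = 0.0327). The 7 B cell markers in the table summed to 15.3 to 19.7 CPM in MAVS KO and 35.4 to 57.4 CPM in WT, and Ighm, the heavy chain of IgM, had 10.4, 9.19 and 8.94 CPM in MAVS KO, against 33.2, 26.0 and 49.2 CPM in WT (log2 fold change -1.93, edgeR adjusted p = 0.00783). Ighm was the only 1 of 4 tested B cell markers to pass, and 3 of the 4 had a log2 fold change below 0. Cd79b had 1.35, 1.01 and 1.76 CPM in MAVS KO, against 6.21, 5.02 and 2.44 CPM in WT (log2 fold change -1.73, edgeR adjusted p = 0.0727). Cd22 went the other way (0.63) and did not pass. Cd79a had at most 0.427 CPM in any library, and Ms4a1 had 0 counts in each MAVS KO library and 9, 0 and 7 counts in WT. The part of B cells in the values of Gcsam, Irf8 and Wdfy4 was not tested.

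Naaa, a lysosomal acid amidase that hydrolyses N-acylethanolamines, had 436.6, 460.5 and 500.6 CPM in MAVS KO, against 641.5, 428.1 and 664.1 CPM in WT. WT replicate 2 lay below every MAVS KO library, and the log2 fold change was -0.31 (SE 0.16, 95% interval -0.65 to 0.03, edgeR adjusted p = 0.373). Its longest transcript of 2414 bases matches Olfr54 at 94.7% over 583 bases and Ccdc167 at 92.0% over 549 bases, so a part of its reads could be shared.

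The number of members called lower depended on the libraries. It was 1, 2 and 1 without MAVS KO replicate 1, 2 and 3, and 3, 3 and 2 without WT replicate 1, 2 and 3, with Xcr1 among them each time. Calls over all genes fell as well, from 132 lower with all libraries. They were 9 of 12916, 25 of 13112 and 14 of 13137 genes without MAVS KO replicate 1, 2 and 3. Without WT replicate 1, 2 and 3 they were 94 of 12819, 62 of 13072 and 96 of 12853. Snx22 passed in 3 of these 6 fits, and Itgae, Wdfy4 and Gcsam in 1 each; the direction of the 5 called genes held in each of these fits. With limma-voom 3 members were called, Xcr1, Wdfy4 and Snx22, and 102 of 12580 tested genes were lower.

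**Figure D2:**
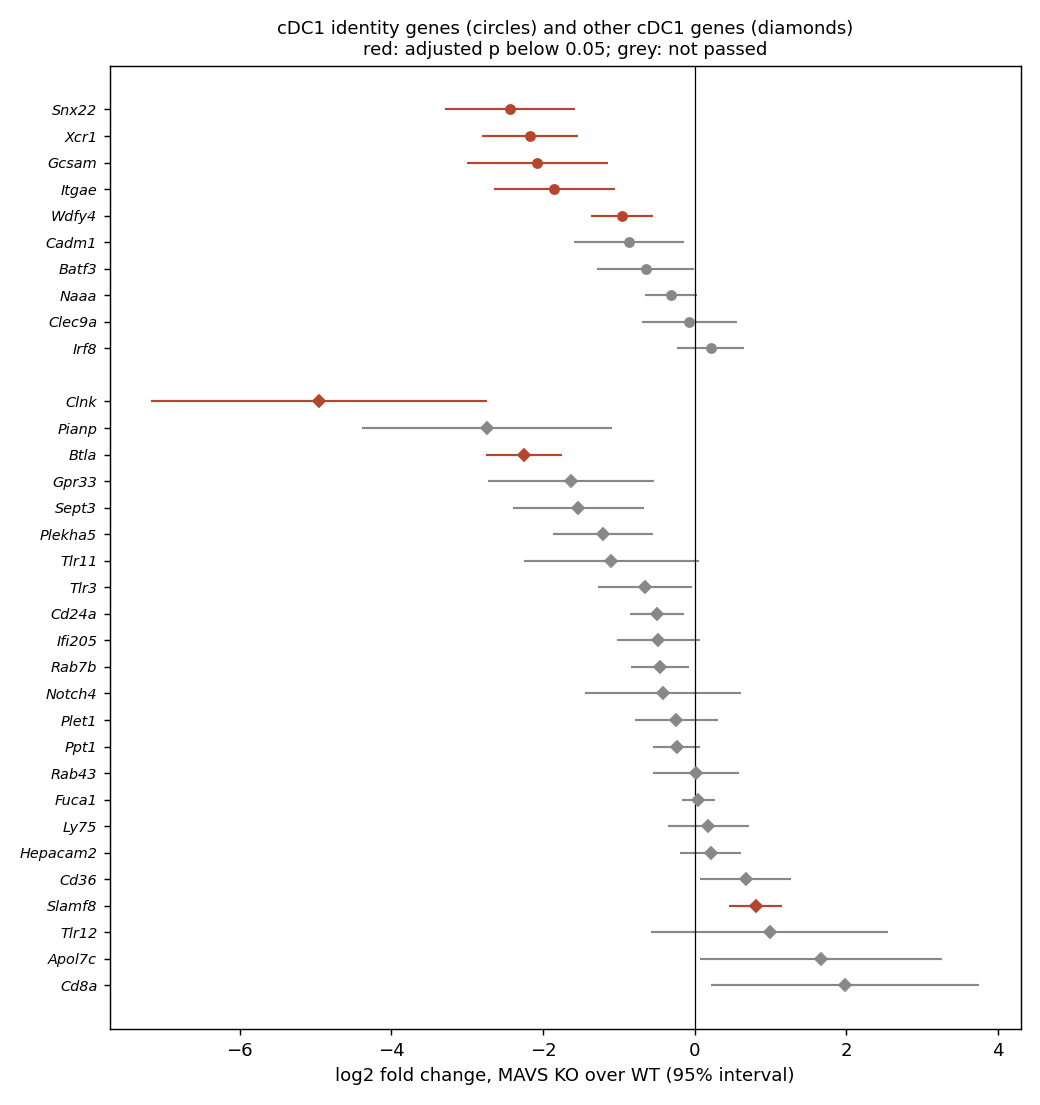
Log2 fold change, MAVS KO over WT, with its 95% interval (horizontal axis) for the 10 cDC1 identity genes (circles) and 23 other cDC1 genes (diamonds), red where the edgeR adjusted p is below 0.05. Snx22, Xcr1, Gcsam and Itgae lie between -2.44 and -1.85, while the intervals of Naaa, Clec9a and Irf8 include 0.

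Most members varied more within WT than within MAVS KO. WT replicate 3 held the highest WT level of 9 members, Batf3 being highest in WT replicate 1, and WT replicate 2 held the lowest level of 8. The ratio of the highest to the lowest library was larger in WT than in MAVS KO for 9 members, the exception being Wdfy4 at 1.71-fold in MAVS KO and 1.10-fold in WT. Irf8 spanned 1.05-fold in MAVS KO and 1.82-fold in WT, and Clec9a 1.22-fold in MAVS KO and 1.84-fold in WT. These are descriptions of 3 libraries a group and were not tested.

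Levels of different genes were compared per exon length, as RPKM, the CPM divided by the exon length in kilobases. In MAVS KO the order of mean RPKM was Naaa (125 ± 8.68), Irf8 (61.8 ± 1.70), Batf3 (5.35 ± 1.21), Wdfy4 (2.84 ± 0.739), Clec9a (2.17 ± 0.239), Xcr1 (1.75 ± 0.393), Itgae (1.55 ± 0.598), Gcsam (1.26 ± 0.501), Cadm1 (1.12 ± 0.377) and Snx22 (0.554 ± 0.0829; SD, n = 3 each). In WT it was Naaa (155 ± 35.0), Irf8 (53.5 ± 19.6), Batf3 (8.39 ± 2.99), Xcr1 (7.88 ± 2.90), Itgae (5.58 ± 2.36), Wdfy4 (5.52 ± 0.320), Gcsam (5.33 ± 2.90), Snx22 (3.01 ± 1.46), Clec9a (2.28 ± 0.757) and Cadm1 (2.03 ± 0.880; SD, n = 3 each). Naaa and Irf8 stood far above the other 8 in both groups, without overlap. In WT the library ranges of all neighbours from Batf3 to Cadm1 overlapped, and in MAVS KO those from Wdfy4 to Cadm1 did, with Batf3 above and Snx22 below them. Clec9a ranked 5 of 10 in MAVS KO and 9 of 10 in WT.

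A ratio of 2 genes within a library does not depend on how libraries are scaled, so each member was set against Clec9a. Xcr1 gave 0.956, 1.02 and 1.28 counts per Clec9a count in MAVS KO, against 5.42, 3.89 and 4.62 in WT. The 2 receptors thus had nearly equal counts in MAVS KO libraries, and Xcr1 exceeded Clec9a several-fold in every WT library. The mean log2 ratio was 0.11 ± 0.22 in MAVS KO and 2.20 ± 0.24 in WT (SD, n = 3 each), a difference of -2.10 (two-sided exact permutation p = 0.1). With 3 libraries a group 0.1 is the smallest p that test can give, so no ratio could pass 0.05.

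Of the 9 ratios, 6 had all MAVS KO values below all WT values, 1 had them above, and 2 overlapped. Of the 12579 other tested genes, members included, 2.76% had ratios to Clec9a that lay lower in MAVS KO without overlap, and 5.43% higher. Snx22 gave 0.196, 0.305 and 0.196 counts per Clec9a count in MAVS KO, against 0.910, 1.17 and 1.31 in WT. Gcsam (difference of mean log2 ratios -1.95), Itgae (-1.79), Wdfy4 (-0.97) and Cadm1 (-0.80, and -0.51 without MAVS KO replicate 1) were also lower relative to Clec9a in MAVS KO, although Cadm1 alone did not pass the test across genes. Irf8 was higher relative to Clec9a, with 56.6, 68.3 and 58.8 in MAVS KO, against 45.7, 52.5 and 51.9 in WT. Batf3 (-0.59, two-sided exact permutation p = 0.2, and -0.25 without WT replicate 1) and Naaa (-0.26, exact permutation p = 0.3) overlapped between groups. The 9 comparisons share Clec9a, so they are not independent.

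**Figure D3:**
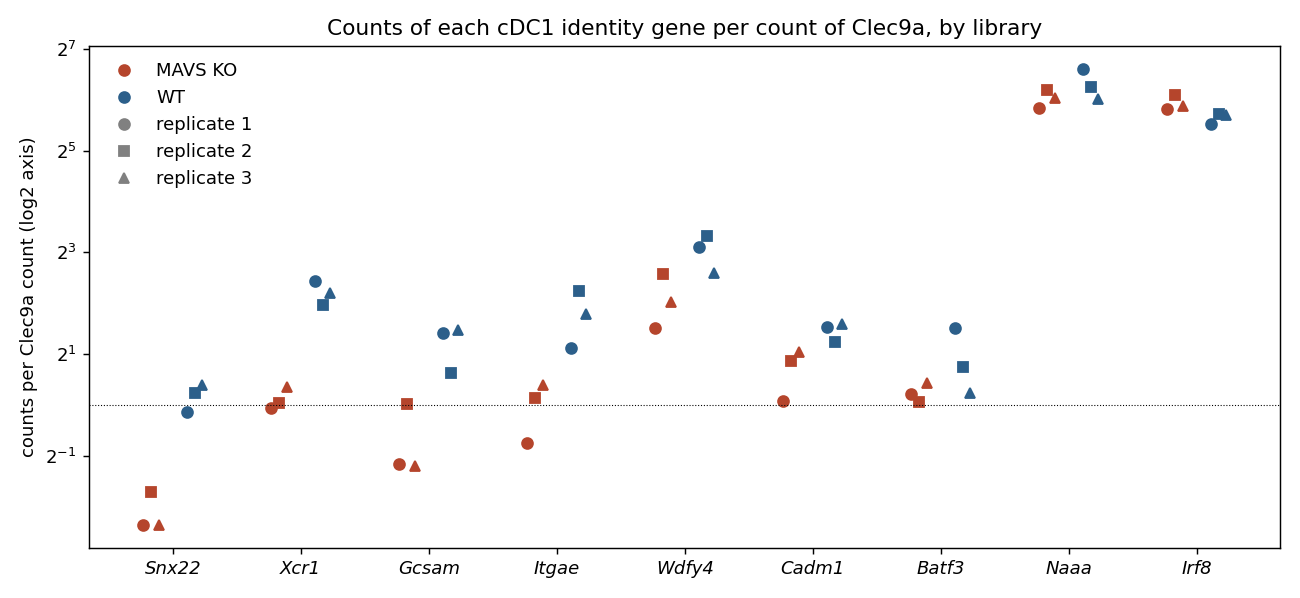
Counts of each of 9 cDC1 identity genes per count of Clec9a in the same library (log2 vertical axis), for MAVS KO (red, left of each pair) and WT (blue, right), symbols as replicate numbers. Xcr1 lies near 1 in MAVS KO (0.956 to 1.28) and between 3.89 and 5.42 in WT, and Irf8 is higher in MAVS KO.

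A wider list of 23 other genes known from cDC1 gave 2 lower, 1 higher and 20 not passed, with a median log2 fold change of -0.42. Btla, an inhibitory receptor of the CD28 family, had 5.67, 6.37 and 7.18 CPM in MAVS KO, against 32.5, 22.2 and 37.1 CPM in WT (log2 fold change -2.26, SE 0.23, edgeR adjusted p = 0.00181). The part of B and T cells in the Btla values was not tested. Clnk, an adaptor of immune receptor signalling, had 4, 0 and 0 counts in MAVS KO, against 74, 18 and 82 counts in WT (edgeR adjusted p = 0.0327). Slamf8, which macrophages also express, was higher at 254, 254 and 300.0 CPM in MAVS KO, against 178, 116 and 170 CPM in WT (edgeR adjusted p = 0.032). Tlr3, the endosomal sensor of double-stranded RNA that is abundant in cDC1, averaged 11.8 ± 3.59 CPM in MAVS KO and 18.7 ± 6.14 CPM in WT (SD, n = 3 each) and did not pass (log2 fold change -0.66, edgeR adjusted p = 0.29). Cd8a (1.98, from at most 44 counts in a library), Apol7c (1.66) and Cd36 (0.67) had positive log2 fold changes and did not pass. For Cd8a each MAVS KO library lay above each WT library. Of the 23 genes, 14 had a log2 fold change below 0.

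Of 13 genes shared by conventional dendritic cells, 3 were lower, none was higher and 10 did not pass, with a median log2 fold change of -0.24. Flt3, the growth factor receptor on which these cells depend, had 10.8, 10.9 and 15.5 CPM in MAVS KO, against 42.4, 34.1 and 73.3 CPM in WT (log2 fold change -2.01, edgeR adjusted p = 0.011). Zbtb46, a transcription factor of conventional dendritic cells (-1.20, edgeR adjusted p = 0.0402), and Kmo, a kynurenine enzyme (-1.32, edgeR adjusted p = 0.00806), were also lower. The MHC class II genes H2-Aa (log2 fold change 0.10), H2-Ab1 (0.03) and H2-Eb1 (0.25) and their chaperone Cd74 (0.24) did not pass.

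Of 17 tested transcription factors of dendritic cell development, 1 was lower, 2 were higher and 14 did not pass. Zbtb46 was the lower 1. Id2, an inhibitor of E proteins that cDC1 require and that many other leukocytes express, had 860, 893 and 818 CPM in MAVS KO, against 598, 561 and 652 CPM in WT (log2 fold change 0.51, edgeR adjusted p = 0.0282). Batf2, a relative of Batf3 that can stand in for it in mice, had 72.3, 71.5 and 97.7 CPM in MAVS KO, against 44.8, 33.5 and 52.1 CPM in WT (log2 fold change 0.89, SE 0.18, edgeR adjusted p = 0.0338). Batf2 therefore went the opposite way from Batf3, whose own log2 fold change did not pass; the difference between both was not tested. Irf4, which marks the cDC2 branch, did not pass (log2 fold change -0.70, edgeR adjusted p = 0.236).

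Among ligands, partners and relatives of the members, 0 of 19 were called lower by edgeR and 2 were higher, Batf2 and Wdfy1. Wdfy1, a FYVE-domain protein that shares a WD repeat domain with Wdfy4, had 28.8, 41.0 and 66.5 CPM in MAVS KO, against 13.2, 9.50 and 11.6 CPM in WT (log2 fold change 1.99, edgeR adjusted p = 0.0118), the opposite direction from Wdfy4. The Xcr1 ligand Xcl1 had 0.397 ± 0.101 CPM in MAVS KO and 0.293 ± 0.142 CPM in WT (SD, n = 3 each) and Crtam, the ligand of Cadm1, 0.216 ± 0.192 and 0.174 ± 0.152 CPM, both too low to be tested. Of 13 genes of cross-presentation Cybb, the NADPH oxidase subunit, was higher (log2 fold change 0.54, edgeR adjusted p = 0.0382) and 12 did not pass, including Sec22b (0.04) and Tap1 (0.40).

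Of 13 tested growth factor receptors, chemokine receptors, chemokines and cytokines linked to cDC1, 1 was lower, 4 were higher and 8 did not pass. Besides Flt3, Ccr7, the receptor that guides dendritic cells to lymph nodes, had 101, 60.2 and 60.9 CPM in MAVS KO, against 39.4, 27.2 and 35.9 CPM in WT (edgeR adjusted p = 0.0288). The T cell attractant Cxcl9 (log2 fold change 0.99) and Il12a (3.26, from at most 81 counts in a library) were higher as well. Il12b, the interleukin-12 subunit for which cDC1 are a known tumour source, did not pass (log2 fold change 0.03, SE 0.69).

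Markers of other cell types moved in several directions beside the members. Of 12 cDC2 genes 11 were tested, 3 of them lower and 1 higher: Cd209a (log2 fold change -1.86), Tmem176a (-1.74) and Tmem176b (-1.63) fell and Sirpa (0.56) rose, and the summed level was 3008 to 4613 CPM in MAVS KO and 2584 to 2866 CPM in WT. Mgl2, which did not pass, and Sirpa made up 81.6 to 90.6% of that sum in MAVS KO and 76.5 to 80.8% in WT. Of 14 tested genes of mature dendritic cells 4 were higher and none lower. Of 14 macrophage markers Cx3cr1 fell (-1.42) and 13 did not pass. Among monocyte markers Chil3 rose (2.46) and 7 of 8 did not pass, and among neutrophil markers Mmp8 rose (1.10) and 4 of 5 tested did not. None of 7 tested plasmacytoid, 6 natural killer or 2 tumour epithelial markers passed with edgeR. The epithelial gene Epcam averaged 6.91 ± 1.51 CPM in MAVS KO and 10.5 ± 5.18 CPM in WT (SD, n = 3 each). Lgals4 averaged 3.22 ± 1.42 CPM in MAVS KO and 4.05 ± 0.887 CPM in WT (SD, n = 3 each). Krt8 and Krt19 were near 0 in both groups, with no count in MAVS KO and a single count each in WT. Of 14 cell cycle genes 8 were lower and none higher, summing to 535 to 579 CPM in MAVS KO and 741 to 1130 CPM in WT. The part of these shifts in the members' values was not tested.

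**Figure D4:**
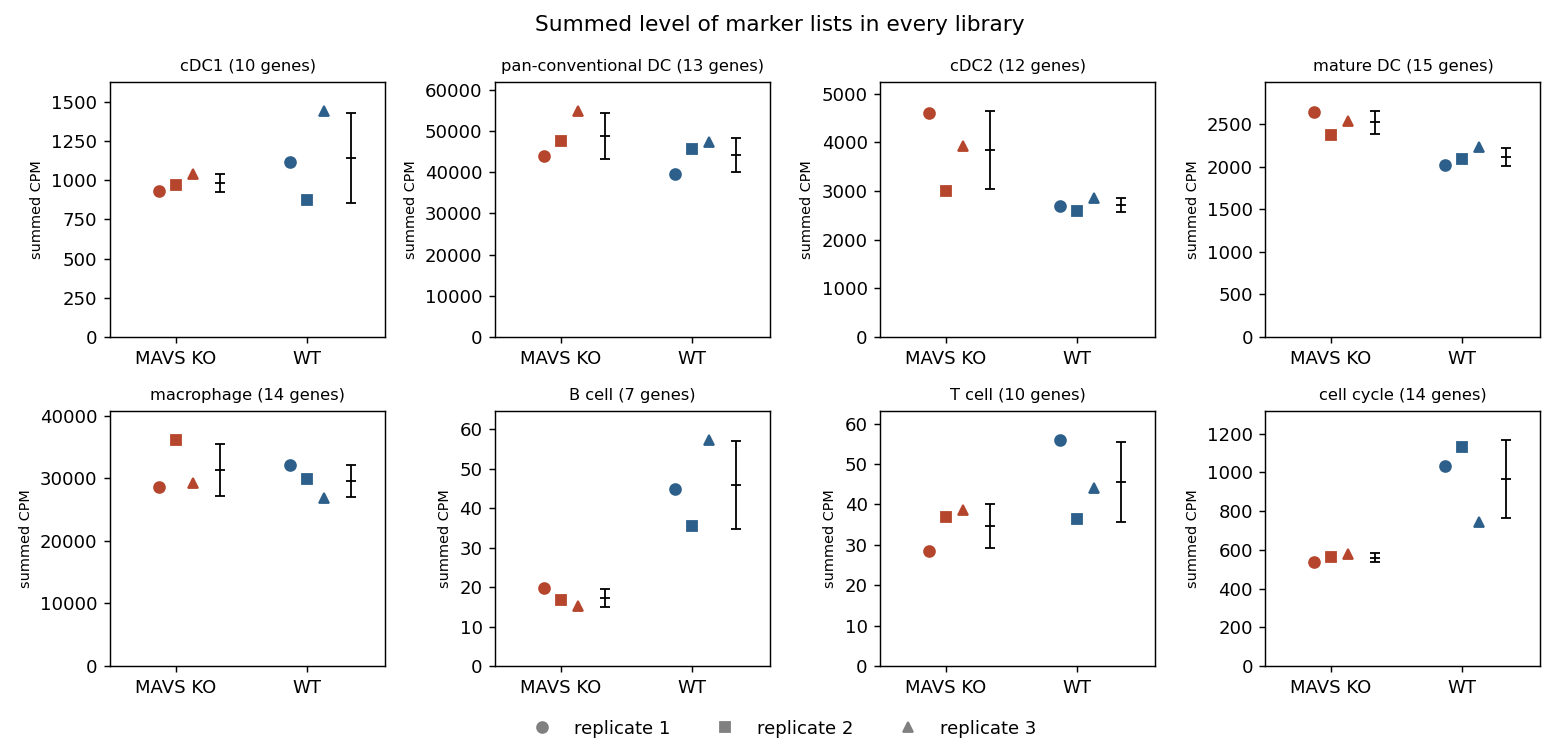
Summed TMM-scaled CPM of marker lists (vertical axis from 0) in the MAVS KO libraries (red, left) and WT libraries (blue, right), with the mean ± SD in black. The B cell and cell cycle sums do not overlap between the groups and are lower in MAVS KO, the cDC2 and mature dendritic cell (DC) sums do not overlap and are higher, and the cDC1, pan-conventional DC, macrophage and T cell sums overlap. The cDC1 sum is mostly Naaa and Irf8 (91.4 to 93.3% in MAVS KO, 83.0 to 84.4% in WT) and the cDC2 sum mostly Mgl2 and Sirpa, so neither shows the less abundant genes. Abundant genes also weigh on the pan-conventional DC sum, where Cd74 averaged 21439.4 CPM in MAVS KO and 18164.5 CPM in WT. Flt3, in the same sum, averaged 12.4 CPM in MAVS KO and 49.9 CPM in WT. Lyz2 weighs likewise on the macrophage sum, averaging 22105 CPM in MAVS KO and 21636 CPM in WT.

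The tested genes whose profile over the 6 libraries was most like that of Xcr1 were Flt3, Btla, Cd209a, Cxcr3 and Slc46a3. Likeness was the root mean square difference of log2 CPM after centring each gene on its mean, over 8633 protein-coding genes whose mean reached 5 CPM, and was 0.154 for Flt3, 0.173 for Btla, 0.229 for Cd209a, 0.284 for Cxcr3 and 0.327 for Slc46a3. All 5 were called lower in MAVS KO, which the measure favours because Xcr1 itself differed between the groups. Cd209a is a cDC2 and monocyte-derived cell gene, so the profile is not restricted to cDC1 genes. For Clec9a the nearest were Usp6nl (0.0825), Inpp5e (0.0841), Tsc22d3 (0.0991), Sec22c (0.104) and Elp3 (0.111), none of which was called by edgeR or is known as a cDC1 marker.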

How the data were processed

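The authors deposited 1 table of raw counts, whole numbers per gene and library, for 3 MAVS KO and 3 WT libraries of tumour-infiltrating dendritic cells. Per the submitters' processing notes the build was mm10 and the named tools were HISAT2, HISAT, HTSeq and DESeq2; roles, versions, annotation and strandedness are not stated there. Symbols, positions and exon lengths were taken from GENCODE M21 (GRCm38), which matched 26383 of 26519 rows.

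The test was edgeR 4.0.16 (R 4.3.3) with its quasi-likelihood fit of genotype alone, after TMM scaling and filterByExpr at a minimum count of 10 and a minimum total of 15. The fit was repeated with DESeq2 size factors, with library totals alone, unfiltered, above a mean of 5 CPM, with robust dispersion, with a replicate block, with a required log2 fold change of 1, with DESeq2 1.42.0, with limma-voom (limma 3.58.1) and without each library. Ratios to Clec9a used log2 of counts plus 0.5 and an exact permutation test. RPKM used the union of annotated exons. The procedure was tested on simulated data. No 2 libraries agreed within sampling noise (chi-square per degree of freedom 14.9 to 83.2).

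The members and lists were chosen with earlier results of these data known. All members are named; of each other list, genes past the threshold by p, up to 6, or else those of smallest p, up to 3. Itgb7, Tlr3, Irf4, Xcl1, Crtam, Sec22b, Tap1, H2-Aa, H2-Ab1, Cd74, Il12b, Lyz2, Cd79a, Ms4a1, Krt8, Krt19, Cd3e, Cd3d, Cd3g, Mgl2 and the genes overlapping or matching a member were named after their values were seen. Cd79b, Cd22, Foxp3, Cd5, Cd8a, Apol7c and Cd36 were likewise named after their values were seen. Promoter windows and motif letters were also chosen after the values were seen. Some genes counted in the lists are not reported here by name.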

Additional observations from a re-analysis of the deposited data

How the results depend on the processing

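Of the 10 members, Xcr1, Batf3 and Naaa kept direction and side of the threshold under all 15 alternatives. Xcr1 had adjusted p from 9.99e-22 (no filter on low counts) to 0.0494. The count of members called lower, 5, was 3 with limma-voom, where Itgae (adjusted p = 0.0503) and Gcsam (0.0839) were lost, and 1 to 3 when a library was left out; the count called higher was 0 to 1 in those fits, Irf8 without WT replicate 3. The log2 fold change of Clec9a was -0.25 to 0.23 when a library was left out, turning positive without MAVS KO replicate 2 (0.02) and without WT replicate 3 (0.23), neither passing. In those fits Irf8 was 0.05 to 0.55, Naaa -0.49 to -0.20, Batf3 -0.85 to -0.34 and Cadm1 -1.14 to -0.47. Other cDC1 genes called lower, 2, were 4 with library size alone, 10 with no filter, 6 with the DESeq2 Wald test, and 1 to 3 when a library was left out. Over all genes 354 calls became 924 with no filter, 772 with the DESeq2 Wald test, 149 at a log2 fold change of at least 1, and 36 to 277 when a library was left out. With library size alone the median log2 fold change of all genes was -0.17, calls were 102 higher and 341 lower, and the same 5 members were called. The ratios to Clec9a kept their direction under every alternative tried. Deviations of same-numbered libraries had correlations of -0.03, 0.03 and 0.11, and those of differently numbered libraries ran from -0.14 to 0.13. With 3 libraries a group these values cannot show whether same-numbered libraries were paired. With a replicate block 414 genes and the same 5 members were called. The SE was then 0.19 for Itgae and 0.43 for Gcsam, beside 0.36 and 0.42 without the block. The fewest counts of any member were 20, for Snx22 in MAVS KO replicate 3; the effect of depth was not tested.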
